A study of Mus musculus with 8 samples.

Results

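Interferon-stimulated genes are the genes that cells switch on when they receive an interferon signal, and 39 of them were followed here in a mouse leukaemia over 6 days of doxycycline (Dox). They were chosen by name, from interferon biology, but with earlier results of these data known. Counts of them called below therefore describe the set and do not test it. All 39 were found by symbol among the 12830 genes of the deposited count tables. The leukaemia, AML410, is an acute myeloid leukaemia of monosomal karyotype, p53-/-, in which a hairpin RNA holds down PU.1, a transcription factor of myeloid development encoded by Spi1. The hairpin is linked to green fluorescent protein (GFP) and is shut down by Dox, so that endogenous PU.1 returns step by step. Cells positive for GFP were sorted from the bone marrow of leukaemic C57BL/6 recipients, and every group carries the same p53 loss and the same hairpin. The untreated group was sorted as GFPhigh, the day 2 group as GFPhigh-mid, the day 4 group as GFPmid and the day 6 group as GFPlow. Time on Dox and GFP gate therefore changed together and cannot be told apart. Each group holds 2 libraries, called technical replicates in the sample titles and duplicate mice in the design text, and all come from a single leukaemia.

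Type I interferons bind the receptor chains IFNAR1 and IFNAR2, whose kinases phosphorylate STAT proteins. STAT2 then acts with IRF9 in a complex called ISGF3, which binds the interferon-stimulated response element (ISRE) in the promoters of its targets. The targets include sensors of foreign nucleic acid, enzymes that act on double-stranded RNA, and effectors that block the entry, copying or release of viruses, and many of them also respond to other IRF factors in myeloid cells.

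The libraries held 9262047 to 11213292 counts each, and levels are given as CPM, counts scaled by library size with TMM factors. Spi1 itself stood at 8.34 and 12.9 CPM in the untreated libraries, 14.8 and 15.6 at day 2, 94.0 and 103 at day 4 and 217 and 229 at day 6. Its rise passed the test at day 4 and day 6 (log2 fold change against untreated 3.21 and 4.39, edgeR adjusted p = 1.57e-08 and 8.84e-10) but not at day 2 (0.52, edgeR adjusted p = 0.103). Day 2 replicate 1 stood apart, since 13.3% of its counts fell on an unnamed gene that held 0.0883 to 0.149% in the other libraries. Sums over several sets of cell type markers changed with the days, and whether the leukaemia cells themselves carry them is unknown here. The 8 neutrophil markers, all at counts above 0 in every library, summed to 57975 and 70872 CPM at day 6, against 3898 and 2599 in untreated cells. The 9 monocyte and macrophage markers summed to 10876 to 11311 CPM at day 6, against 5051 to 5552 in untreated cells, and the 7 myeloid progenitor markers to 4961 to 5115, against 14646 to 16449.9. Plasmacytoid dendritic cells are a strong source of interferon. Of their 8 markers 6 are in the tables, with lower sums at day 6 (71.3 and 75.1 CPM) than in untreated cells (102 and 123 CPM). Siglech, 1 of the 6 and low in both groups, went against the sum. It had 2.59 and 2.49 CPM at day 6 and 0.681 and 0.335 CPM in untreated cells. The part of these shifts in the results below was not tested, and in bulk RNA fewer cells of a type and less RNA per cell cannot be told apart.

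Nearly all the change came after day 2, and it went in 1 direction. Against untreated cells 2 of the 39 genes were called higher at day 2 (Samhd1 and Cmpk2) and 1 lower (Dtx3l), in a comparison where 4.18% of all 12330 tested genes were called higher and 1.95% lower. At day 4, 34 were higher and none lower (26.1% of all genes higher, 22.0% lower). At day 6 all 39 were higher (32.0% of all genes higher, 31.6% lower), although with scaling by total counts 36 were called, Eif2ak2 was not, and Dtx3l and Igtp had the opposite sign. A call means an adjusted p under 0.05 in the edgeR quasi-likelihood test over all genes. The median log2 fold change of the 39 was 0.13 at day 2, 0.97 at day 4 and 1.98 at day 6, beside 0.00, -0.02 and -0.04 over all genes. At day 6 the values ran from 0.31 (Igtp) to 5.54 (Ifit3), 32 genes were more than 2-fold higher and 19 more than 4-fold. In each of the 39 both day 6 libraries lay above both untreated libraries, a separation that 39.7% of all tested genes showed in that direction.

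**Figure D1:**
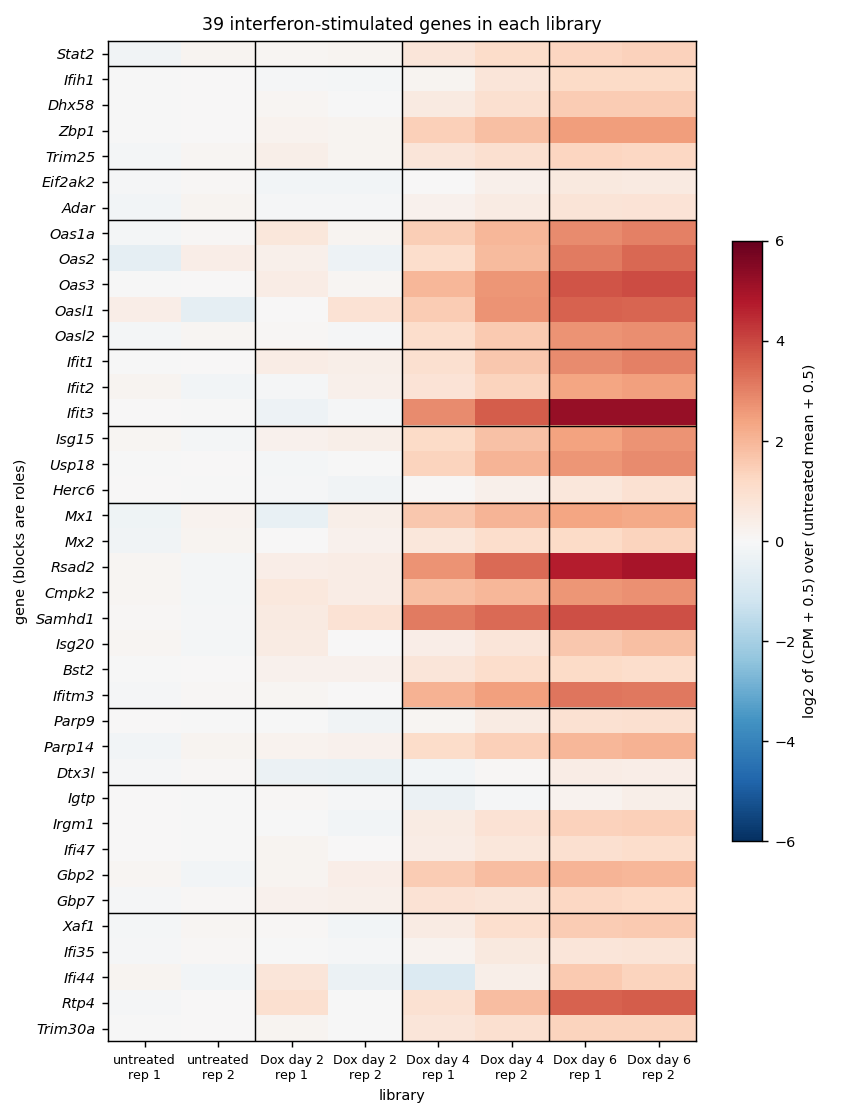
The heat map gives, for each of the 39 genes (down the page, in blocks by role) and each of the 8 libraries (across, untreated at the left and Dox day 6 at the right), the log2 ratio of its CPM to the untreated mean, with 0.5 added to both. Colour is near white in the untreated and day 2 libraries, and most rows turn red at day 4 and darker at day 6, where all 39 genes were called higher (36 with scaling by total counts, under which Dtx3l and Igtp changed sign).

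Between successive days, 36 of the 39 were higher at day 4 than at day 2 and none lower (21.7% of all genes higher, 15.9% lower). Between day 6 and day 4, 35 were higher and none lower (15.9% and 14.0% of all genes), and with scaling by total counts 25 were higher. The median log2 differences were 0.81 and 0.76, beside -0.01 and -0.02 over all genes. In 35 genes every day 6 library lay above every day 4 library and every day 4 library above every day 2 library, an order found in 20.9% of all tested genes. In 12 genes the lowest mean was that of day 2, but of the 39 only Dtx3l was called lower there than in untreated cells. Both day 2 libraries lay below both untreated ones in 7 of the 39, which 23.2% of all tested genes showed. They lay above them in 13, which 25.5% of all tested genes showed. Summed over the 39 genes, the level was 1878 and 2001 CPM in untreated cells, 2117 and 2029 at day 2, 4039.9 and 5159 at day 4 and 7806 and 8077 at day 6.

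The promoters were searched for the element that ISGF3 reads, and a few are shown before the values. Promoter windows, from 250 bases before to 50 bases after the start in the RefSeq annotation of GRCm38.p6, were at hand for 30 of the 39 genes (36 windows). Oas2, Usp18, Mx1, Mx2, Zbp1, Dhx58, Parp9, Parp14 and Rtp4 had none. The ISRE core GAAANNGAA, searched on both strands, occurred in 20 of the 36 windows (55.6%), against 7.51% of the 12576 windows of all genes in the tables. The GAS core TTCNNNGAA, which STAT dimers bind, is its own reverse complement and occurred in 30.6% against 6.88%, and 2 of its matches overlapped an ISRE core. The ETS-IRF composite core GGAANNGAA, the kind of site that PU.1 can share with an IRF partner, occurred in 16.7% against 7.43%. It was present in 6 genes, and in 4 of them (Stat2, Trim25, Adar and Igtp) it shared bases with an ISRE core. The 6 windows below were picked only among those with an ISRE core, from members described in full, by the largest rise at day 6. Strongly rising members without a core, such as Samhd1 and Oasl1, are therefore not shown. Each window is read along the transcript, with every ISRE core in capitals (on either strand) and 20 bases on either side.
Ifit3: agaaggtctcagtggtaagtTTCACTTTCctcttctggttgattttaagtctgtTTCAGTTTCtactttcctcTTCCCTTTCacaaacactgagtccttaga
Rsad2: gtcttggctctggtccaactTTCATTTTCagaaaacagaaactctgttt
Oas3: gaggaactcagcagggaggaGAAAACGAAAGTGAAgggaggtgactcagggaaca
Ifit1: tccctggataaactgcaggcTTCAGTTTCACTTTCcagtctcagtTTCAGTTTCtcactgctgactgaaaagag
Isg15: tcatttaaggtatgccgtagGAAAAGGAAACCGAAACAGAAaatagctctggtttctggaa
Gbp2: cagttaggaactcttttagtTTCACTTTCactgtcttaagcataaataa
They lie at chr19:34583354-34583455 on the plus strand (Ifit3), chr12:26456543-26456591 on the minus strand (Rsad2), chr5:120777700-120777754 on the minus strand (Oas3), chr19:34640760-34640833 on the plus strand (Ifit1), chr4:156200856-156200916 on the minus strand (Isg15) and chr3:142620585-142620633 on the plus strand (Gbp2). Ifit3, Ifit1 and Isg15 each hold 3 cores, Oas3 has 2 that overlap, and Rsad2 and Gbp2 have 1, with first bases between 155 and 58 bases before the start. In Isg15 the 3 cores run into each other as a single stretch of GAAA repeats 78 bases before the start.

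**Figure D2:**
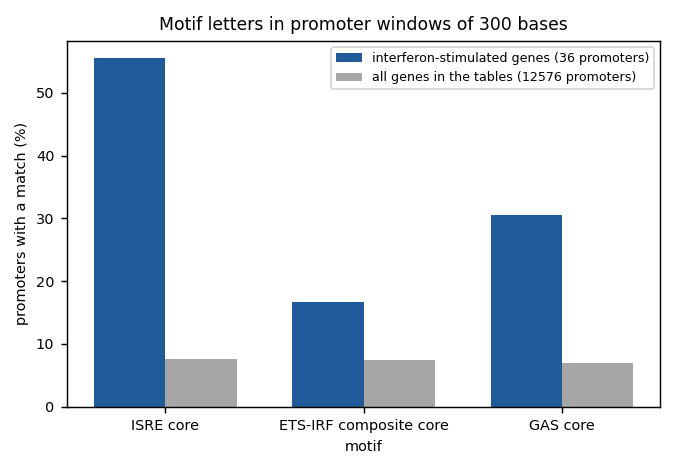
Bars give the percent of 300-base promoter windows that hold each motif on either strand, for the 36 windows of interferon-stimulated genes (blue) and the 12576 windows of all genes in the tables (grey). The ISRE core stands at 55.6% in the interferon-stimulated genes and 7.51% in all genes, and both other cores are also higher in the blue bars.

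Genes with and without an ISRE core in the window overlapped in the size of their rise, a difference that was not tested. The 19 genes with a core ran from 0.31 to 5.54 at day 6 (median log2 fold change 1.41), and the 11 without one from 0.42 to 3.88 (median 1.72). Samhd1, at 3.88, and Oasl1, at 3.65, were among the 11 without it, and Igtp, at 0.31, had 1 core. Cmpk2, Herc6, Ifi47, Oasl1, Oasl2 and Xaf1 matched none of the 3 cores, which says only that these letters are not in these windows.

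Stat2 (chromosome 10, 128270498 to 128292853, mm10), the STAT protein that works almost only in type I and type III interferon signalling, stood at 39.8 and 52.3 CPM in untreated cells, 49.5 and 51.6 at day 2, 77.7 and 100.3 at day 4 and 115 and 120.2 at day 6. The day 2 libraries lay inside the untreated range, and both later groups lay wholly above it. Against untreated the log2 fold change was 0.13 at day 2 (SE 0.14, edgeR adjusted p = 0.634), 0.95 at day 4 (SE 0.14, adjusted p = 0.000155) and 1.35 at day 6 (SE 0.14, adjusted p = 4.98e-06). Day 6 exceeded day 4 by 0.40 (SE 0.13, adjusted p = 0.0372), a call that did not hold under scaling by total counts or without day 4 replicate 1 or either day 6 library. By day 4 Stat2 had covered 60.0% of its difference in CPM between day 6 and untreated cells. Irf9, which acts with it in ISGF3 and is not among the 39, also rose at day 6, by 1.20 (SE 0.09) on the log2 scale. The annotated spans of Stat2 and Apof, which was also counted, overlap by 753 bases, and those of Eif2ak2 and Gm6548 by 2041, so reads there are uncertain.

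All 4 genes of nucleic acid sensors and their regulators were higher at day 4 and day 6, and Zbp1 rose most. Zbp1, which binds Z-form nucleic acids and can trigger necroptosis, had 28.7 and 29.5 CPM in untreated cells, 33.6 and 32.4 at day 2, 78.6 and 104 at day 4 and 166.1 and 170.0 at day 6. Its groups did not overlap at any step from day 2 on, and the log2 fold change was 1.65 at day 4 (SE 0.12, edgeR adjusted p = 6.36e-07) and 2.53 at day 6 (SE 0.12, adjusted p = 1.01e-08). Dhx58 encodes LGP2, a regulator of RIG-I-like receptors that lacks their signalling domain. It had 44.5 and 46.8 CPM in untreated cells, 49.0 and 44.8 at day 2, 66.8 and 89.9 at day 4 and 132 in both day 6 libraries. The day 2 libraries overlapped the untreated ones, while the later groups were apart from them (log2 fold change 0.78 at day 4 and 1.53 at day 6, SE 0.12 each, adjusted p = 0.000297 and 6.29e-07). Ifih1, the MDA5 sensor of long double-stranded RNA, had log2 fold changes of 0.48 at day 4 and 1.16 at day 6, and Trim25, a ubiquitin ligase of the RIG-I pathway, 0.86 and 1.27. The day 4 call of Ifih1 (edgeR adjusted p = 0.0159) did not hold without day 4 replicate 2 or untreated replicate 1, nor with total counts as the scale. RIG-I itself, listed as Ddx58 and not among the 39, rose by 1.07 at day 4 and 2.50 at day 6.

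The pair of double-stranded RNA enzymes outside the OAS family rose less at day 6 than the sensors and regulators above. Eif2ak2, the kinase PKR that halts translation, had 99.2 and 112 CPM in untreated cells, 94.3 and 95.1 at day 2, 108 and 128 at day 4 and 158 and 155 at day 6. Only at day 6 did it pass against untreated (log2 fold change 0.57, SE 0.09, edgeR adjusted p = 0.00023), and with total-count scaling it did not (0.14). Its day 4 difference of 0.17 passed only without day 4 replicate 1 (0.29). Adar, which edits adenosines to inosines and so marks RNA as self, had 147 and 183 CPM in untreated cells, 159 and 155 at day 2, 196 and 231 at day 4 and 281 and 293 at day 6. Its day 6 libraries stood above all others (log2 fold change 0.80, SE 0.11, adjusted p = 5.17e-05). Its day 4 call (0.37, adjusted p = 0.0136) was lost without untreated replicate 1 (0.23) or day 4 replicate 2 (0.25) and under scaling by total counts (0.12).

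The OAS family, whose active enzymes make the oligoadenylates that switch on RNase L, rose as a whole. All 5 members were more than 2-fold higher at day 4 and none was called at day 2, and at day 6 their log2 fold changes ran from 2.75 (Oasl2) to 3.88 (Oas3). Oas3 (chromosome 5, 120753098 to 120777684) had 32.3 and 33.1 CPM in untreated cells, 44.2 and 35.6 at day 2, 131 and 210.5 at day 4 and 459.6 and 506 at day 6. Each later group lay wholly above the one before it, and the fold change at day 6 was 14.8 (log2 3.88, SE 0.19, edgeR adjusted p = 1.67e-08). Oasl1 had 5.88 and 2.85 CPM in untreated cells, 4.50 and 8.35 at day 2, 13.5 and 30.5 at day 4 and 55.9 and 53.9 at day 6. Its untreated and day 2 libraries were intermingled and its day 6 libraries high (log2 fold change 3.65, SE 0.38, adjusted p = 6.54e-06). Oas1a and Oas2 had log2 fold changes of 2.96 and 3.43 at day 6. The mouse genome holds several near-identical Oas1 genes, and the treatment of reads shared by such copies is unknown here, which leaves Oas1a uncertain. Its copy Oas1g rose by 3.50.

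The IFIT family, which binds foreign RNA by its cap and end structure, held the steepest rise. Ifit3 (chromosome 19, 34583119 to 34588982) had 2.04 and 1.93 CPM in untreated cells, 1.50 and 1.88 at day 2, 17.5 and 30.7 at day 4 and 92.3 and 93.5 at day 6. The day 2 libraries were the lowest of all, and the day 6 libraries stood 46.5-fold above untreated (log2 fold change 5.54, SE 0.26, edgeR adjusted p = 9.39e-09). Its rise between day 2 and day 4, 13.9-fold (SE of the log2 fold change 0.30, edgeR adjusted p = 2.29e-06), was the largest of the 39, followed by Rsad2 (6.65-fold) and Samhd1 (5.91-fold). Reads of Ifit3 may be shared with its near copy Ifit3b, which rose by 6.55 at day 6. Ifit1, which binds RNA lacking cap methylation, had 12.2 and 12.4 CPM in untreated cells, 17.2 and 15.6 at day 2, 24.1 and 38.2 at day 4 and 91.8 and 104 at day 6. Its 4 groups followed each other without overlap (log2 fold change 2.99 at day 6, SE 0.18, adjusted p = 6.84e-08), but at day 2 the difference of 0.41 did not pass (adjusted p = 0.279). The annotated span of Ifit1bl1, a related gene counted separately, covers all 9121 bases of the Ifit1 locus. Ifit2 had log2 fold changes of 1.11 at day 4 and 2.43 at day 6.

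Of the ISG15 system, the modifier and its protease moved together and the ligase less. Isg15, a ubiquitin-like protein attached to other proteins, had 12.1 and 10.4 CPM in untreated cells, 13.6 and 14.6 at day 2, 25.8 and 39.6 at day 4 and 62.5 and 74.7 at day 6. Usp18, which removes ISG15 and dampens IFNAR2 signalling, had 15.8 and 16.8 CPM in untreated cells, 15.0 and 16.2 at day 2, 41.6 and 68.4 at day 4 and 105 and 121 at day 6. In both genes the day 4 libraries lay above all earlier ones and the day 6 libraries above day 4. Their log2 fold changes at day 6 were 2.61 (Isg15, SE 0.19, edgeR adjusted p = 3.01e-07) and 2.80 (Usp18, SE 0.19, adjusted p = 2.14e-07). Herc6, the ligase that attaches ISG15 in mice, had 59.8 and 69.6 CPM at day 6, against 37.6 and 36.2 CPM in untreated cells (log2 fold change 0.81, adjusted p = 5.77e-05), and did not pass at day 4 (0.19, adjusted p = 0.175).

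Effectors that act on viral entry, budding, nucleotides or RNA held both rises called at day 2 and some of the largest changes at day 6. All 8 were higher at day 4 and at day 6, when each was more than 2-fold up. The day 4 calls of Isg20 and Mx2 were lost without day 4 replicate 2 (edgeR adjusted p = 0.161 and 0.0573), and that of Isg20 also with total-count scaling (0.34) or without untreated replicate 2 (0.49). Samhd1 (chromosome 2, 157097534 to 157135096), which depletes the deoxynucleotides that viral polymerases need, had 97.2 and 88.0 CPM in untreated cells, 134 and 167.7 at day 2, 818 and 965 at day 4 and 1349 and 1375 at day 6. It had the largest fold change of the 39 at day 2 (log2 fold change 0.70, SE 0.12, edgeR adjusted p = 0.00635; 0.63 and adjusted p = 0.0519 without untreated replicate 2). At day 6 it stood 14.7-fold above untreated (log2 3.88, SE 0.13, adjusted p = 9.75e-10). Most of that difference was made between day 2 and day 4, at 2.56 on the log2 scale against 0.61 between day 4 and day 6.

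Rsad2 and Cmpk2 are neighbours on chromosome 12, 12664 bases apart, and a link between their products has been proposed. The Rsad2 product viperin turns CTP into a chain terminator of viral RNA, and Cmpk2 is thought to help supply that CTP. Rsad2 had 5.96 and 4.95 CPM in untreated cells, 7.38 and 7.54 at day 2, 37.8 and 61.9 at day 4 and 158 and 183 at day 6. Cmpk2 had 49.1 and 42.2 CPM in untreated cells, 71.0 and 62.5 at day 2, 159.8 and 184 at day 4 and 289 and 311 at day 6. In both genes every group lay above the one before. Rsad2 reached a log2 fold change of 4.96 at day 6 (31.2-fold, SE 0.22, edgeR adjusted p = 6.97e-09) and Cmpk2 2.72 (6.57-fold, SE 0.11, adjusted p = 2.67e-09). At day 2 their log2 fold changes were 0.45 and 0.55, and of the pair only Cmpk2 passed (adjusted p = 0.427 for Rsad2 and 0.0161 for Cmpk2). The Cmpk2 call was lost without day 2 replicate 1 (0.45) or untreated replicate 2 (0.44) and under scaling by total counts (0.36).

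Among the other effectors, Ifitm3, which traps viruses in endosomes, had log2 fold changes of 2.30 at day 4 and 3.20 at day 6, and stood at 958 and 941 CPM at day 6 against 99.5 and 107 CPM in untreated cells. Mx1, a dynamin-like GTPase whose C57BL/6 allele is known to be defective, reached 2.37 at day 6, and Mx2 1.32. Isg20, an RNA exonuclease, reached 1.72 and was the only 1 of the 8 not called between day 2 and day 4 (0.30, edgeR adjusted p = 0.208). Bst2, the tetherin that holds budding virions on the cell, reached 1.10. Mx1, Mx2 and Bst2 did not pass between day 4 and day 6, with log2 differences of 0.48 (SE 0.20), 0.35 (SE 0.22) and 0.21 (SE 0.10) and edgeR adjusted p of 0.0971, 0.253 and 0.135. Mx1 and Bst2 did pass in that comparison without day 4 replicate 2, and Mx1 also with the replicate block or without either day 2 library.

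**Figure D3:**
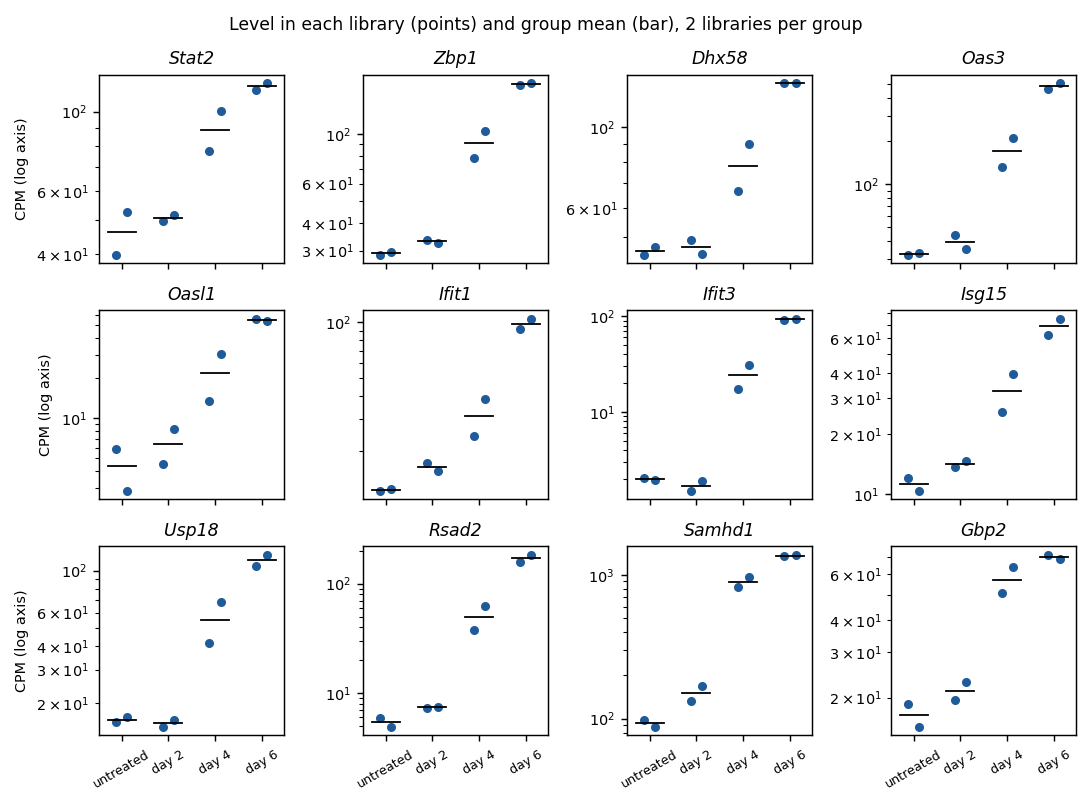
Each panel gives the CPM of 1 gene on a log axis of its own for the 8 libraries (points) and the mean of each group of 2 (bars), with untreated at the left and day 6 at the right. In Samhd1 and Rsad2 the larger step lies between day 2 and day 4, in Ifit1 the step between day 4 and day 6 is the larger, and in Gbp2 the day 4 mean of 57.3 CPM is already near the day 6 mean of 70.2 CPM.

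Parp9 and Dtx3l form a complex in which an ADP-ribose binding protein is joined to a ubiquitin ligase, and Parp14 is a larger relative beside them on chromosome 16. Parp14 had 65.0 and 81.9 CPM in untreated cells, 86.3 and 87.7 at day 2, 159 and 199 at day 4 and 295 and 318 at day 6, with both later groups far above the first 2 (log2 fold change 2.06 at day 6, SE 0.12, edgeR adjusted p = 6.61e-08). Parp9 had 50.7 and 49.97 CPM in untreated cells, 48.9 and 43.0 at day 2, 55.1 and 71.5 at day 4 and 94.1 and 98.7 at day 6 (log2 fold change 0.94 at day 6, SE 0.11, adjusted p = 2.48e-05). Its day 4 call (0.33, adjusted p = 0.0354) did not hold under DESeq2, under scaling by total counts or without any of the untreated or day 6 libraries or day 4 replicate 2. Dtx3l took the only fall of the set. It had 139.6 and 157 CPM in untreated cells, 118 and 114 at day 2, 134 and 157 at day 4 and 201 and 197 at day 6. The day 2 libraries lay below all others (log2 fold change against untreated -0.36, SE 0.09, adjusted p = 0.0442), a call at the edge of the threshold that was lost with RLE size factors (adjusted p = 0.0506), with the replicate block (adjusted p = 0.0503) and without untreated replicate 2 or any day 2 or day 6 library. The day 6 libraries lay above all others (0.42, SE 0.09, adjusted p = 0.00162), but the sign turned under scaling by total counts (-0.01). The annotated ends of Parp9 and Dtx3l overlap by 558 bases, and with strandedness unknown here, reads in the overlap cannot be assigned to either.

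Of 5 interferon-induced GTPases, from families that act against intracellular microbes, 4 rose by day 4 and all by day 6, with Igtp again the exception under total counts. Gbp2 had 18.8 and 15.4 CPM in untreated cells, 19.5 and 23.1 at day 2, 50.7 and 64.0 at day 4 and 71.4 and 68.9 at day 6. Its day 4 and day 6 groups were apart by little (log2 difference 0.29, SE 0.12, edgeR adjusted p = 0.0998, called without day 4 replicate 2), and both lay above the earlier groups (log2 fold change 2.03 at day 6, SE 0.14, adjusted p = 1.85e-07). Irgm1 had 56.8 and 56.2 CPM in untreated cells, 55.5 and 50.7 at day 2, 78.7 and 102 at day 4 and 149.6 and 151 at day 6 (log2 fold change 1.41, SE 0.11, adjusted p = 5.94e-07). Gbp7 and Ifi47 reached 1.23 and 1.01. Igtp had 84.2 and 80.6 CPM in untreated cells, 86.7 and 78.1 at day 2, 64.0 and 79.1 at day 4 and 96.9 and 107 at day 6. Both day 4 libraries lay below the untreated ones without passing (-0.20, adjusted p = 0.13; called lower with total-count scaling or without day 4 replicate 2), and day 6 lay above them (0.31, adjusted p = 0.0231). That call was lost without day 6 replicate 2 or untreated replicate 2, and the sign turned under scaling by total counts (-0.13). Gbp and Irg genes have close relatives, so their counts may be shared in part.

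In the remaining group, Rtp4 and Ifi44 made most of their change late. Rtp4, a receptor transport protein, had 6.73 and 7.21 CPM in untreated cells, 13.8 and 6.73 at day 2, 13.6 and 26.1 at day 4 and 87.7 and 90.7 at day 6. Day 2 replicate 1 was level with day 4 replicate 1, and day 6 stood far above both (log2 fold change against untreated 3.68, SE 0.30, edgeR adjusted p = 7.70e-07). Ifi44 was the lowest of the set, with 10 and 7 counts in the untreated libraries, 13 and 5 at day 2, 2 and 11 at day 4 and 28 and 24 at day 6. Its log2 fold change at day 6 was 1.98 (SE 0.60, adjusted p = 0.0127) and was not called without untreated replicate 2 (1.74) or day 6 replicate 1 (1.83). The 3 largest rises between day 4 and day 6 were those of Ifi44 (2.20, SE 0.63), Rtp4 (2.17, SE 0.26) and Ifit3 (1.95, SE 0.19). The Ifi44 value fell short of the threshold without day 4 replicate 1 (1.41) or either day 6 library. Xaf1, an antagonist of the apoptosis inhibitor XIAP, Ifi35 and Trim30a reached 1.55, 0.76 and 1.33 at day 6.

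The timing can be read as the share of the day 6 difference from untreated, in CPM, that was present at day 4. Over the 39 genes its median was 36.2%, 30 genes were under 50%, and none exceeded 80%. The same share for Spi1 was 41.4%. By role, Stat2 stood at 60.0%, and the sensors and their regulators lay between 32.0 and 57.7%. The OAS family lay between 21.7 and 35.9%, the IFIT family between 22.0 and 26.4% and the ISG15 system between 19.3 and 39.9%. The entry, budding, nucleotide and RNA effectors ranged widest among roles without a negative value, from 22.0% (Isg20) to 74.2% (Bst2). Gbp2 was highest of all at 75.8%, and Igtp, Dtx3l and Ifi44 were negative because their day 4 mean lay below untreated. These shares, and the order they give, belong to the CPM scale and depend on it. On the log2 scale, the day 4 and day 6 medians against untreated were 1.78 and 3.43 for the OAS family. They were 1.34 and 2.99 for the IFIT family, beside 0.95 and 1.35 for Stat2. Samhd1 stood at 3.27 and 3.88 on that scale. The shares also carry the error of 2 libraries per group, which the timing plot shows, and differences between roles were not tested.

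**Figure D4:**
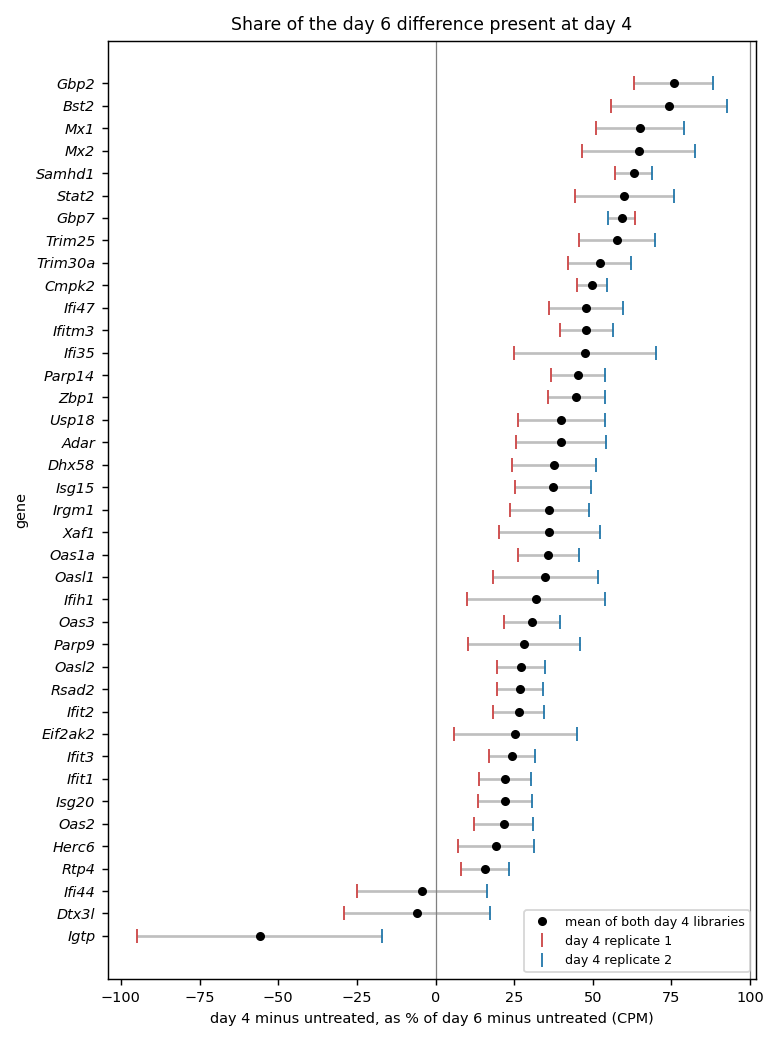
For each gene (down the page, sorted) the black point gives the day 4 minus untreated difference as a percent of the day 6 minus untreated difference in CPM, and the ticks give it for each day 4 library alone. Gbp2 and Bst2 lie at 75.8% and 74.2%, the OAS and IFIT genes lie under 36%, and the ticks of neighbouring genes overlap widely.

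By calls over the successive steps, 29 genes passed between day 2 and day 4 and again between day 4 and day 6 but not before, a pattern shown by 8.22% of all tested genes. Another 4 (Mx1, Mx2, Bst2 and Gbp2) passed only between day 2 and day 4, a pattern shown by 9.85% of all tested genes. Only between day 4 and day 6 did 3 pass (Isg20, Igtp and Ifi44), a pattern shown by 5.19%. Both of these counts are near what all genes showed. Samhd1 and Cmpk2 passed at all 3 steps (1.17% of all genes), and Dtx3l fell at the first and rose at the next 2 (0.13%). These classes rest on single thresholds and several do not hold under other settings. Without day 4 replicate 2, Mx1, Bst2 and Gbp2 passed both later steps and Mx2 passed neither. Mx2, Herc6 and Rtp4 also missed the threshold between day 2 and day 4 under DESeq2 (adjusted p = 0.0833, 0.103 and 0.138), and Isg20 passed that step without day 2 replicate 1 (0.54, edgeR adjusted p = 0.0479). A step that missed the threshold does not show that the gene stood still there.

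The 2 day 4 libraries differed in a shared direction in these genes, which genes at large did not show. In 38 of the 39 genes day 4 replicate 2 was the higher, with a median log2 ratio of 0.40, while over all genes 49.4% were higher in it and the median was -0.003. The lone exception was Gbp7. In the other groups replicate 2 was the higher in 24 (untreated), 14 (day 2) and 29 (day 6) of the 39. The neutrophil markers summed to 16055 CPM in day 4 replicate 2 and 10725 CPM in day 4 replicate 1, and the monocyte and macrophage markers to 12969.9 and 12365 CPM in the same order. Their part in the difference was not tested. Without day 4 replicate 2, 28 of the 39 were called higher at day 4 and Igtp was called lower, and without day 4 replicate 1 the count was 35 higher.

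**Figure D5:**
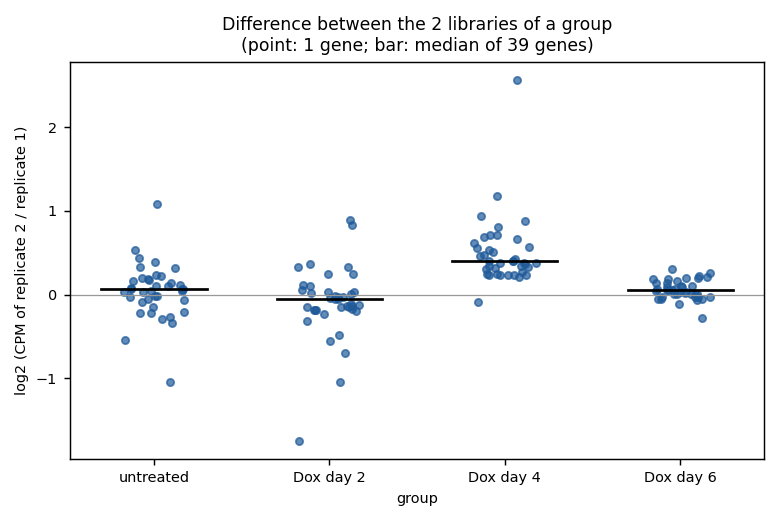
Points give, for each of the 39 genes, the log2 ratio of CPM between the 2 libraries of a group (replicate 2 over replicate 1), and bars give the median. At day 4 the points lie almost all above 0, with a median of 0.40, and in the other groups the median lies within 0.1 of 0.

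Per kilobase of gene length, the most abundant of these transcripts changed. In untreated cells the order was led by Ifitm3 (160 CPM per kb), Bst2 (67.9), Ifi47 (48.3) and Igtp (40.7). At day 6 it was led by Ifitm3 (1466 CPM per kb), Samhd1 (340), Bst2 (146), Oasl2 (112) and Oas3 (102). Oas3 went to place 5 at day 6, against place 29 in untreated cells, and Samhd1 to place 2, against 12. Igtp went to place 19, against 4, and Dtx3l to place 26, against 7. Ifi44 was last in both groups, at 0.988 CPM per kb at day 6 and 0.247 in untreated cells.

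Most components of the signalling pathway around the 39 genes also rose. Of 35 components in the tables, 26 rose (74.3%) and 4 fell (11.4%) at day 6, beside 32.0% and 31.6% of all genes. At day 4, 23 rose and 3 fell (26.1% and 22.0% of all genes), and at day 2, 4 rose and 1 fell (4.18% and 1.95% of all genes). Their median log2 fold change at day 6 was 0.99. The 9 interferon ligand genes of the list and Tlr3 were absent from the deposited counts and could not be analysed here. Those counts hold only genes with at least 0.501 CPM in 3 or more libraries. A gene expressed in only 1 group of 2 libraries could therefore be missing, and the levels of these genes are unknown here. Of the receptor chains, Ifnar1 and Ifnar2 rose by 0.74 and 1.43 and Ifngr2 by 1.95, while Ifngr1, the ligand-binding chain for interferon gamma, fell by 0.41. Irf5, Tlr9 and Irf7 rose most, with log2 fold changes of 4.60, 4.43 and 3.27 at day 6. Irf7, the master factor for interferon alpha genes and itself an interferon target, had 41.6 and 39.3 CPM in untreated cells, 43.0 and 36.7 at day 2, 117 and 198 at day 4 and 386 and 395 at day 6. Irf8, a factor of monocyte and dendritic development, had 615 and 594 CPM at day 6, against 1597 and 1259 in untreated cells (log2 fold change -1.24, SE 0.12, edgeR adjusted p = 3.56e-06). Socs3, an inhibitor of cytokine receptors, and Ikbke, a kinase that activates IRF3, also fell, by 1.09 and 0.59 on the log2 scale. At day 4 the 3 that fell were Socs3, Ikbke and Irf4, the last with 5 and 4 counts at day 4 against 66 and 22 in untreated cells.

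In a wider list of interferon-response genes most members also rose. The deposited files held 62 of them, of which 60 were tested, and 53 rose and 2 fell at day 6, beside 32.0% and 31.6% of all genes. At day 4, 44 rose and 2 fell (26.1% and 22.0% of all genes). At day 2, 3 rose and 1 fell, and the 5.0% that rose is near the 4.18% of all genes. The list had a median log2 fold change of 1.52 at day 6. Ifit3b, Ms4a4c and Slfn1 led with 6.55, 6.40 and 6.00. Those that fell were Gbp5 (-1.47) and Gbp6 (-0.72), both guanylate-binding proteins like Gbp2, which rose. Gbp5 had 25.4 and 21.3 CPM at day 6, against 55.3 and 74.5 CPM in untreated cells, with no overlap.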

How the data were processed

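Per the file headers, the deposited tables give for each Entrez ID a count, whole and not normalised by the authors, beside the length of the gene. Per the submitters' processing notes, the build was mm10 and the tools included featureCounts, CASAVA 1.8.2, limma 3.22.0 and edgeR 3.8.2. Neither aligner, strandedness nor treatment of reads shared by gene copies is named, each being not given in the sources used here. Every deposited gene reaches a CPM of at least 0.501 in 3 or more libraries, so low genes had been removed. RefSeq GRCm38.p6, the same build, named 12555 of the 12830 IDs and supplied the promoter sequences.

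All 8 libraries entered 1 edgeR 4.0.16 fit in R 4.3.3 (filterByExpr, TMM, glmQLFit, glmQLFTest, group means). It left 12330 genes, with 4 residual degrees of freedom and Benjamini-Hochberg adjustment over all of them at a threshold of 0.05. Standard errors are the log2 fold change over the root of the F statistic. The labels call the libraries technical replicates, so p-values reflect just the spread among them, and this may be technical. The script was tested on simulated data. Gene length, used only for CPM per kilobase, is the deposited value. All 39 members passed the filter on low counts.

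Members and lists were chosen with earlier results of these data known. Described in full were Stat2, members called at day 2, and up to 2 rising and 2 falling per role at day 6. Also named were the 3 leading members of each later step and up to 3 per direction of each further list. Other members, and other genes of the further lists, are named as accounts of the set and chosen after their values were seen. Alternatives were RLE size factors, scaling by total counts, no filter, DESeq2 1.42.0, a replicate block and leaving out each library.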

Additional observations from a re-analysis of the deposited data

How the results depend on the processing

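Among the 39 genes, the counts called higher at day 6 were 39 with RLE size factors, no filter, DESeq2 and the replicate block, and 36 under scaling by total counts. That scaling moved the all-gene median to -0.17 at day 2, -0.27 at day 4 and -0.47 at day 6, and gave 2078 genes higher and 6647 lower at day 6, against 3942 and 3897 with TMM. The medians of the 39 genes were then -0.05, 0.72 and 1.55 at days 2, 4 and 6. The splits were 1816 and 4519 against 3217 and 2707 at day 4, 170 and 658 against 516 and 240 at day 2, and 881 and 2646 against 1961 and 1728 between day 4 and day 6. Leaving out each library in turn gave 0 to 2 higher and 0 to 1 lower at day 2, 28 to 35 higher and 0 to 1 lower at day 4, and 37 to 39 higher at day 6. Between day 2 and day 4 it gave 27 to 36 higher and 0 to 1 lower, and between day 4 and day 6, 26 to 38 higher. Scaling by total counts gave 33 and 25 at these steps. At day 2, scaling by total counts left 1 gene higher, and RLE size factors and the replicate block left 0 lower. At day 4, scaling by total counts called 1 lower (Igtp). Under total counts the direction turned for 8 genes at day 2 (Stat2 at -0.0461, Dhx58, Zbp1, Ifit2, Mx1, Ifitm3, Ifi47 and Trim30a), for Eif2ak2 and Herc6 at day 4 and for Dtx3l (-0.0131) and Igtp (-0.13) at day 6. Leaving out each library turned 1 to 6 genes at day 2 (Stat2 from -0.0450 to 0.345), 0 to 2 at day 4 and 0 at day 6. Over all tested genes, the differences between replicate 1 and replicate 2 correlated weakly from group to group (from -0.13 to 0.21). That cannot show whether libraries of the same number share a mouse or a batch. The replicate block gave 34 higher at day 4 and 36 between day 4 and day 6, with Mx1 added. Apart from these shifts of scale, which the scaling sets by construction, the causes were not tested. With 2 libraries per group, single genes of few counts such as Ifi44 are limited most.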
